A study of Homo sapiens with 12 samples.

Results

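The clustered histone genes are the replication-dependent genes that encode the linker histone H1 and the core histones H2A, H2B, H3 and H4. They were taken as the entries of the count table whose symbol starts with HIST1H, HIST2H, HIST3H or HIST4H, the older nomenclature, which gave 70 of 19225 entries. Of these, 6 encoded H1, 17 H2A, 18 H2B, 14 H3 and 15 H4, and 55 lay in the large HIST1 cluster on chromosome 6. Poly(A) RNA was sequenced from HN6 and HN30, 2 established cell lines of oral squamous cell carcinoma (OSCC), 24 h after transient transfection with a scrambled siRNA (NC) or with siFAT1-1 or siFAT1-2, which target the atypical cadherin FAT1. Each of the 6 conditions had 2 repeats made at separate times, which gave 12 libraries. FAT1 KD below means the 4 libraries of both siRNAs in a line, or the 8 libraries of both lines. The siRNAs of a line share the same 2 NC libraries, and a transient knockdown leaves some FAT1 mRNA in the cells.

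Most clustered histone genes are switched on in S phase, when new DNA must be packaged. Their mRNAs as a rule lack introns and a poly(A) tail. The pre-mRNA ends instead in a short stem-loop that is bound by SLBP, the stem-loop binding protein, and is cut just after it by a machinery that includes the U7 small nuclear RNA. Some of these genes also give polyadenylated transcripts, which run past the stem-loop or splice around it and are known from cells that have left the cycle or differentiate. Poly(T) selection is meant to capture such polyadenylated transcripts. How much tailless mRNA was carried over was not measured.

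A stem of 6 base pairs with a loop of 4 bases was found within 200 nt after the stop codon in 67 of the 70 genes, beginning 23 to 68 nt after it (GENCODE 44, hg38). The search matched none in HIST1H3E, HIST1H2BI and HIST1H4L. The commonest forms are shown because they mark where the tailless mRNA ends, with the stem in capitals and the loop in lower case. The first was present in 40 genes of the types H1, H2A, H2B and H3. The second was present in 10 genes, among them HIST1H2BD, HIST1H2BK, HIST1H2BC and HIST1H2BJ. The last forms were present in 10 and 4 genes, which all encoded H4.
Form of 40 genes, as in HIST1H2AC: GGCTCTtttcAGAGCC
Form of 10 genes, as in HIST1H2BD: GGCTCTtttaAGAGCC
H4 form of 10 genes, as in HIST1H4H: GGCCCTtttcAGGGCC
H4 form of 4 genes, as in HIST2H4B: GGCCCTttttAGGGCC

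In 18 of the 70 genes an annotated transcript ran over 100 nt past the stem-loop (or past the stop codon where no stem-loop matched). GENCODE 44 gave 17 of them, and RefSeq added HIST1H2BK, whose gene span reached 8073 nt past the stem-loop. In GENCODE, 16 of the genes with a stem-loop had 33 such transcripts, of which 29 were spliced, and 16 of the 33 left the stem-loop out. Some of the latter, in HIST2H2BF, HIST4H4 and HIST3H2BB, began past the stem-loop, so they did not splice around it and held no histone coding sequence. HIST1H2BD lies at chr6:26158122-26171349 on the plus strand. Its longer transcript joins a first exon that ends before the stem-loop to a second exon that ends 12747 nt past it. The longer transcripts of HIST1H2AC reached up to 14432 nt, those of HIST1H4H 4076 and 7522 nt, and that of HIST1H3E 1908 nt past the stop codon. A polyadenylation signal (AATAAA or ATTAAA) lay within 50 nt of the end of a longer transcript in 16 genes. The windows below show it in capitals for 4 genes on chromosome 6 that were called higher in FAT1 KD (for HIST1H4H, of the transcript that reached 4076 nt).
HIST1H2BD, chr6:26171315-26171344, plus strand: agttataattAATAAAatctgcggagaatt
HIST1H2AC, chr6:26139078-26139107, plus strand: ggcatgaggtAATAAAaggtaatgcaaagg
HIST1H3E, chr6:26227442-26227471, plus strand: tgagatgtaaAATAAAagattactgaacag
HIST1H4H, chr6:26281060-26281089, minus strand: ataaaaggtgAATAAAatcaggtcactctt

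**Figure D1:**
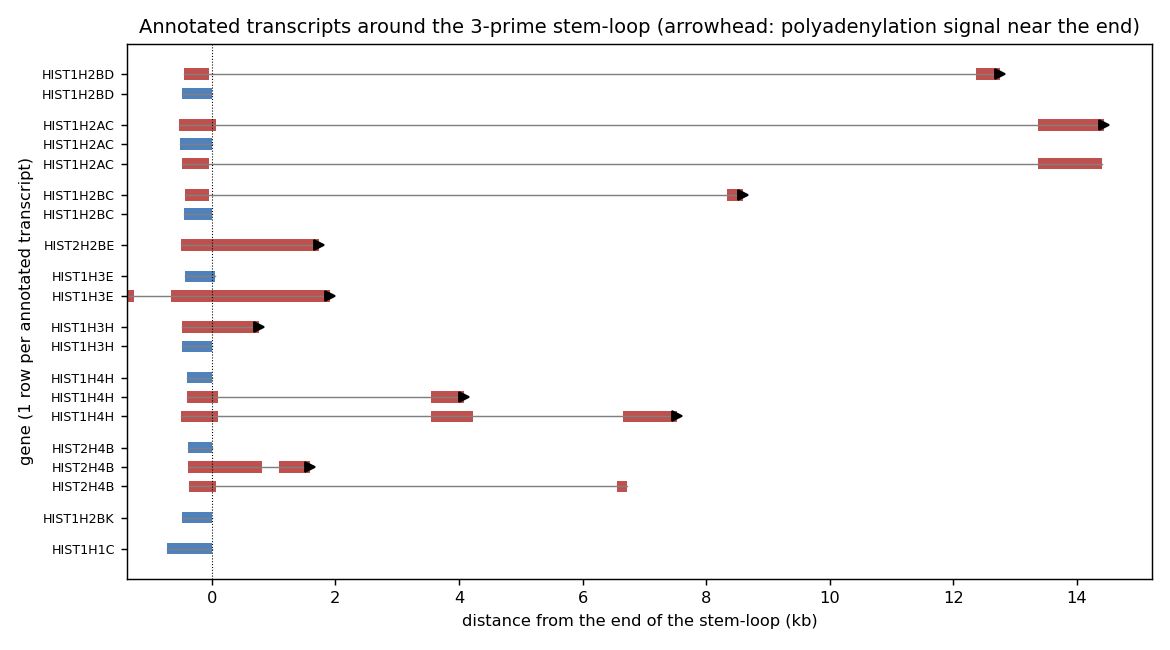
Annotated GENCODE 44 transcripts of 10 clustered histone genes by distance in kb from the end of the stem-loop (for HIST1H3E from the stop codon); boxes are exons, red for transcripts that reach over 100 nt past it and blue for the others, lines are introns, and an arrowhead marks a polyadenylation signal near the end. The longer transcript of HIST1H2BD reaches 12747 nt and that of HIST2H2BE 1729 nt, while HIST1H2BK and HIST1H1C have no longer transcript in this annotation, and 1 transcript of HIST1H2BC that reaches 37155 nt is not drawn.

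The promoters, from 250 bases before to 50 after the start of the RefSeq gene (GRCh38.p14), were listed for 65 of the 70 genes. CCAAT, the site of the factor NF-Y, was present on either strand in 55 of the 65 (84.6%), against 34.6% of all 35116 promoters listed. It was found in every listed promoter of H1, H2A, H2B and H3 genes but in 3 of 13 H4 promoters. TATAAA was present in 66.2% of the 65 against 11.5% of all. The octamer ATTTGCAT, the site of the factor OCT1, was present in 26 of the 65 against 1.77% of all, in 11 of 16 H2A and 14 of 18 H2B promoters. The window of HIST1H3D is identical to that of HIST1H2AD and lies upstream of the GENCODE transcript of HIST1H3D. An H2A promoter with CCAAT and the octamer is therefore counted again among the H3 promoters. The window of HIST1H3E lies at the start of its longer transcript. The promoters of HIST1H2BD, which was called in every comparison with NC, and of HIST1H2BK, the highest clustered histone gene, are shown with these motifs in capitals on either strand. HIST1H2BD had CCAAT and TATAAA but not the octamer, and HIST1H2BK had all 3.
HIST1H2BD, chr6:26157871-26158170, plus strand: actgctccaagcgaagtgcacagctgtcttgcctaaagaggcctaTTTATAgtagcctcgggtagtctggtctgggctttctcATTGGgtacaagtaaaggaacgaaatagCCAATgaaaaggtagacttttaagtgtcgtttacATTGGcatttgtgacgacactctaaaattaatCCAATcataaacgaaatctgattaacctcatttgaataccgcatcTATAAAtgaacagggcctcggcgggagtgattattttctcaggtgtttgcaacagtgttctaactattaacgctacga
HIST1H2BK, chr6:27146809-27147108, minus strand: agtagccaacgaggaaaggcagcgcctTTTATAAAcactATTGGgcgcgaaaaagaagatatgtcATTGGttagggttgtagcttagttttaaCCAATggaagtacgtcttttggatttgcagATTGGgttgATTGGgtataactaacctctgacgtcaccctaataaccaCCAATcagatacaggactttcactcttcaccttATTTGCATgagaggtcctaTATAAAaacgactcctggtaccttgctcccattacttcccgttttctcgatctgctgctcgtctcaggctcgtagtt

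The libraries held 26430049 to 47639010 counts. FAT1 was at 56.8 and 66.8 CPM (counts scaled to the size of the library, with TMM factors) in the HN6 NC libraries and at 7.60 to 21.4 in the 4 HN6 KD libraries, and at 13.6 and 14.8 CPM in HN30 NC and 4.85 to 10.8 in HN30 KD. The groups did not overlap in either line, and FAT1 fell by 1.59 on the log2 scale (SE 0.31, adjusted p 0.0413, edgeR). The summed level of 9 squamous epithelial markers in HN6 was 2583 and 3767 CPM in NC, 6264 and 5382 with siFAT1-1, and 2176 and 3086 with siFAT1-2. The HN30 sums were 2551 and 2394 CPM in NC, 3761 and 3627 with siFAT1-1, and 1543 and 1992 with siFAT1-2, so siFAT1-1 libraries were the highest in both lines. The 3 endothelial markers summed to at most 7.86 CPM in any library, and the 5 fibroblast markers summed to 74.1 and 73.8 CPM in HN6 NC against 69.3 to 163 in KD, and to 12.5 and 22.0 CPM in HN30 NC against 31.8 to 49.9 in KD. Their part in the results below was not tested. In bulk RNA, fewer cells of a kind and less RNA per cell cannot be told apart.

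The first question was which clustered histone genes are seen in poly(A) RNA. At least 10 counts in both repeats of a condition were found for 49 of the 70 genes, and in all 6 conditions for 20. By type, 5 of 6 H1, 13 of 17 H2A, 13 of 18 H2B, 10 of 14 H3 and 8 of 15 H4 genes were detected. HIST1H2AA had no count in any of the 12 libraries. The 7 H4 genes under this limit were HIST1H4A, HIST1H4B, HIST1H4F, HIST1H4G, HIST1H4J, HIST1H4L and HIST2H4A. The number detected was 38 in NC, 46 with siFAT1-1 and 46 with siFAT1-2 in HN6, and 26, 30 and 24 in HN30.

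Levels between genes were compared per kb of exon, as the mean CPM per kb over the 12 libraries. HIST1H2BK, which encodes an H2B, was the highest at 449 CPM per kb, with a range of 148 to 810 over the libraries. HIST1H1C, which encodes linker histone H1.2, followed at 104 CPM per kb with a range of 17.8 to 269. HIST1H2BD stood at 50.6 CPM per kb and HIST1H2AC, which encodes an H2A, at 35.2, and their ranges of 6.13 to 113 and 9.80 to 63.4 overlapped. The other leading genes of each type were much lower. They were HIST3H2A at 9.99 (H2A), HIST1H3D at 8.04 and HIST1H3G at 4.46 (H3), HIST1H4K at 4.18 and HIST1H4E at 3.31 (H4), and HIST1H1E, which encodes H1.4, at 2.00 CPM per kb. The ranges of the 2 leading H3 genes overlapped, as did those of the 2 leading H4 genes. The median gene of each type lay between 0.493 CPM per kb for H4 and 1.66 for H2A. With the coding length in place of the exon length, 7 of the 10 leading genes stayed in the list, and the first place changed to HIST1H3H for H3 (11.1 CPM per kb) and to HIST1H4H for H4 (22.4 against 5.24 for HIST1H4K). HIST1H4J and HIST1H4K share most of their sequence (88.75% and 89.5% of their 150-nt windows), so the value of HIST1H4K is uncertain. HIST1H3D shares 95.48% of its windows with ENSG00000282988 on the same strand, so its value is uncertain too.

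The 18 genes with an annotated longer transcript had a median level of 3.53 CPM and 15 of them were detected. The 52 genes without had a median of 0.478 CPM, and 34 were detected. Per kb of exon the medians were 2.30 and 0.744. The exon length includes the added exons where GENCODE gives the longer transcript, but not for HIST1H2BK, whose exon length is 495 nt. HIST1H1C was an exception, at a mean of 75.9 CPM and with no longer transcript in either annotation.

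**Figure D2:**
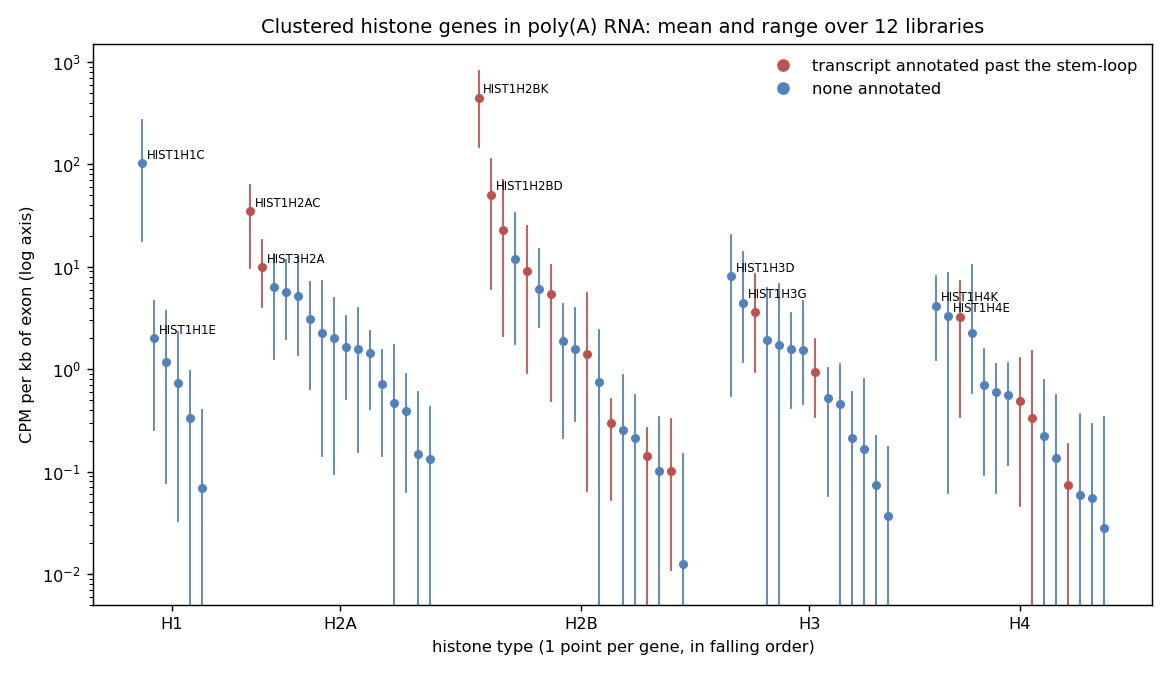
Mean level of each clustered histone gene in CPM per kb of exon on a log axis, by histone type and in falling order, with lines from the lowest to the highest of the 12 libraries (cut at the lower edge where a library was at 0); red marks genes with a transcript annotated past the stem-loop. HIST1H2BK at 449 and HIST1H1C at 104 CPM per kb lie above the rest, and HIST1H2AA, at 0 in each library, is not drawn.

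The 70 genes together took 0.0161% to 0.0942% of all counts in a library. HIST1H2BK held 39.7% of these counts, HIST1H1C 13.6%, HIST1H2AC 10.5% and HIST2H2BE 9.18%. In HN30 the summed level was 170 and 155 CPM in NC, 389 and 344 CPM with siFAT1-1, and 514 and 211 CPM with siFAT1-2. Every HN30 KD library was above both NC libraries, and the second siFAT1-2 library was the nearest to them. In HN6 it was 537 and 875 CPM in NC, 895 and 904 CPM with siFAT1-1, and 904 and 837 CPM with siFAT1-2. Here the second NC library lay among the KD libraries and the first lay below all of them. Without the 4 highest genes the groups did not overlap in either line: the sum was 109 and 163 CPM in HN6 NC against 209 to 302 CPM in KD, and 47.9 and 38.5 CPM in HN30 NC against 74.5 to 195 CPM in KD.

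**Figure D3:**
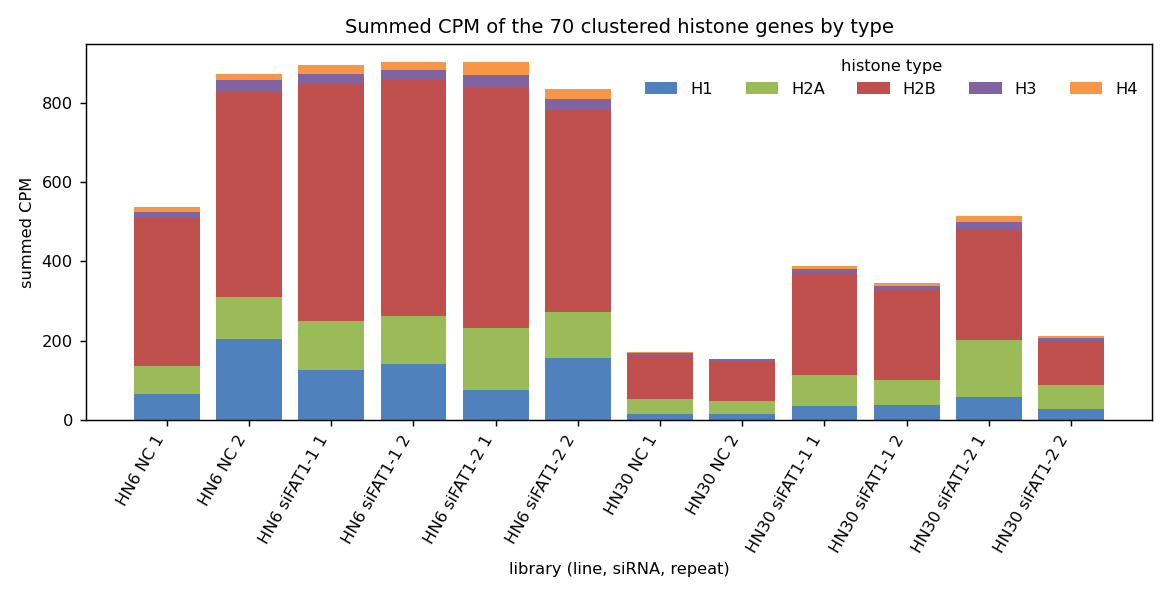
Summed CPM of the 70 clustered histone genes in each of the 12 libraries, stacked by histone type, with bars from 0. H2B genes make up most of each bar, all HN30 KD libraries stand above the HN30 NC libraries at 170 and 155 CPM, and the HN6 NC libraries differ from each other (537 and 875 CPM).

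The second question was which of these genes rose with FAT1 knockdown. In the fit over both lines and both siRNAs, 51 of the 70 genes passed the filter on low counts. A gene was called where its unadjusted P (edgeR quasi-likelihood test) was under 0.05 and its log2 fold change was past 1 in size, the thresholds of the study. Of the 51 genes, 10 were called higher in KD, against 2.1% of all 14360 genes tested, and 0 were called lower, against 1.11% of all. At an unadjusted P under 0.05 of any size, 14 were higher and 0 lower by edgeR, against 6.62% and 7.6% of all genes tested. The median log2 fold change of the 51 was 0.68, against 0.02 over all genes tested, and 44 of the 51 were above 0, against 52.3% of all. HIST1H2BD alone had an adjusted p under 0.05, while 0.286% of all genes tested were higher at that limit. All 8 KD libraries lay above both NC libraries of their line for 6 of the 51 genes, against 2.23% of all genes tested: HIST1H2BD, HIST1H2AC, HIST1H3E, HIST1H4H, HIST2H3D and HIST2H4B. HIST2H4B had under 10 counts in every NC library and passed the filter through its KD libraries. Its call and its place among these 6 genes therefore support nothing about the list. In single KD libraries the median difference of the 51 genes from the NC mean of their line ran from 0.11 (HN30 siFAT1-2, repeat 2) to 1.56 (HN30 siFAT1-2, repeat 1) on the log2 scale. Without the second HN6 NC library 17 genes were called. With repeat 1 or repeat 2 alone, HIST1H2BD was at 2.58 and 1.88 (log2 fold change) with adjusted p of 0.785 and 0.850 by edgeR, and repeat 2 alone called 3 genes.

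**Figure D4:**
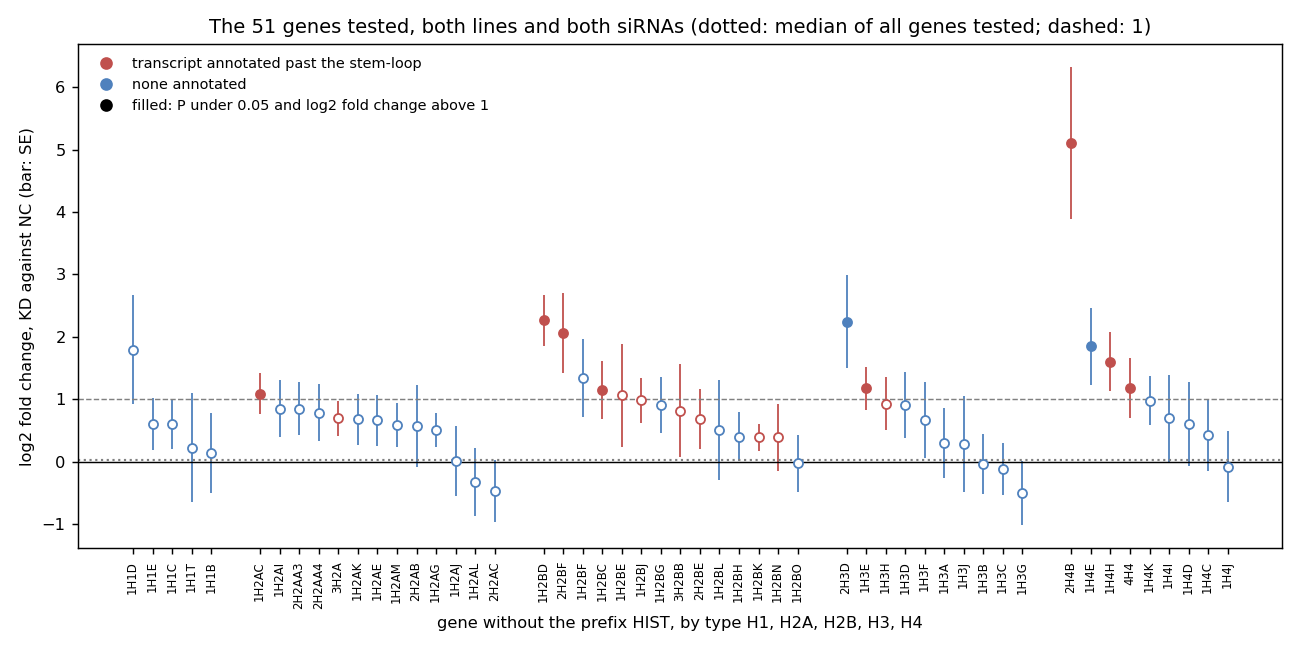
Log2 fold change of FAT1 KD against NC with its SE for the 51 genes tested, by histone type; filled points had an unadjusted P under 0.05 and a log2 fold change above 1 (10 genes), and red marks genes with a transcript annotated past the stem-loop. Most points (44 of 51) lie above 0, and the dotted line is the median of all genes tested at 0.02.

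Among the H2B genes, 3 of 14 tested were called, all higher, against 2.1% of all genes tested, and the median log2 fold change was 0.86. HIST1H2BD was at 19.4 and 23.5 CPM in HN6 NC, 57.6 and 62.8 with siFAT1-1, and 97.0 and 40.9 with siFAT1-2. In HN30 it was at 7.07 and 5.28 CPM in NC, 61.1 and 51.7 with siFAT1-1, and 74.9 and 21.9 with siFAT1-2. Every KD library lay above both NC libraries of its line, and the second siFAT1-2 library was the lowest KD library in each line. HIST1H2BD rose by 2.27 on the log2 scale (SE 0.41, adjusted p 0.0263, edgeR). Leaving out single libraries gave 2.00 to 2.50, and the adjusted p passed 0.05 without either HN30 NC library (0.176 and 0.0910), the first HN6 NC library (0.0907), either HN30 siFAT1-1 library (0.0503 and 0.0554), the first HN6 siFAT1-2 library (0.0562) or the second HN6 siFAT1-1 library (0.0521). No other exon overlapped HIST1H2BD and none of its 150-nt windows was found in another gene.

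HIST2H2BF and HIST1H2BC were the other H2B genes called. HIST2H2BF was at 2.05 and 1.21 CPM in HN6 NC and 3.44 to 9.98 in HN6 KD, and at 0.170 and 0.278 in HN30 NC and 0.117 to 2.94 in HN30 KD. Its groups were apart in HN6 and overlapped in HN30 through the second siFAT1-2 library, and its log2 fold change was 2.06 (SE 0.64, adjusted p 0.174, edgeR). HIST1H2BC was at 18.9 and 12.05 CPM in HN6 NC and 25.2 to 29.7 in KD, and at 5.15 and 1.41 CPM in HN30 NC and 1.75 to 15.4 in KD. The groups again overlapped only in HN30, and the log2 fold change was 1.14 (SE 0.47, adjusted p 0.295, edgeR). Exons of HIST2H2BF and HIST1H2BC overlap FCGR1A and HFE on the opposite strand, and without knowledge of strand use in the counting their reads cannot be told apart. The highest H2B gene did not pass. HIST1H2BK was at 234 and 401 CPM in HN6 NC against 268 to 396 in KD. The HN30 libraries held 73.5 and 81.4 CPM in NC, 155 and 134 with siFAT1-1, and 129 and 76.7 with siFAT1-2. The groups overlapped in both lines, in HN30 through the second siFAT1-2 library. Its log2 fold change was 0.39 (SE 0.22, unadjusted P 0.0971, edgeR), with 0.59 (SE 0.22, unadjusted P 0.0179) for siFAT1-1 alone. HIST2H2BE, at 0.69 (SE 0.48), did not pass either. HIST1H2BJ had an unadjusted P of 0.0170 (edgeR) with a log2 fold change of 0.98 (SE 0.36).

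Of the 13 H2A genes tested, 1 was called higher, against 2.1% of all genes tested, and the median log2 fold change was 0.66. A single call is too few to set apart from that share. HIST1H2AC was at 48.4 and 65.5 CPM in HN6 NC, 85.3 and 80.5 with siFAT1-1, and 106 and 76.6 with siFAT1-2. In HN30 it was at 17.5 and 16.3 CPM in NC, 42.8 and 39.4 with siFAT1-1, and 98.2 and 29.0 with siFAT1-2. All KD libraries were above the NC libraries of their line, most clearly in HN30. The log2 fold change was 1.09 (SE 0.32, adjusted p 0.155, edgeR). An exon of ENSG00000291336, a gene on the same strand, overlaps HIST1H2AC, so reads of the overlap are uncertain. HIST3H2A, the other H2A gene with an unadjusted P under 0.05, was at 7.54 and 17.9 CPM in HN6 NC against 12.98 to 20.5 in KD, and 15.3 and 10.2 in HN30 NC against 18.6 to 33.6 in KD. Its groups were apart in HN30 alone, and its log2 fold change was 0.69 (SE 0.28, unadjusted P 0.0265, edgeR). The lowest value of the type was that of HIST2H2AC, -0.47 (SE 0.49), which did not pass.

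Of the 10 H3 genes tested, 2 were called higher, against 2.1% of all genes tested, and the median log2 fold change was 0.49. HIST1H3E, which encodes H3.1, was at 1.23 and 1.61 CPM in HN6 NC, 2.40 and 2.58 with siFAT1-1, and 2.57 and 1.63 with siFAT1-2. In HN30 it was at 0.905 and 1.52 CPM in NC, 5.22 and 5.08 with siFAT1-1, and 3.29 and 2.27 with siFAT1-2. The HN30 siFAT1-1 libraries were the highest, and in HN6 the second siFAT1-2 library lay barely above the second NC library. The log2 fold change was 1.17 (SE 0.35, adjusted p 0.156, edgeR). HIST2H3D, which encodes H3.2, had 49 counts in the HN6 NC libraries and 281 in HN6 KD, but 0 counts in both HN30 NC libraries and 53 in HN30 KD. Over the group, a limit of 3 counts in HN30 NC puts the 53 counts of HN30 KD 10.3-fold higher. This value leaves out the counting error of the KD counts, so it is not a lower limit. In HN6 the ratio of HIST2H3D was 2.56 (95% exact counting interval 1.89 to 3.55). HIST1H3H had a log2 fold change of 0.93 (SE 0.43, unadjusted P 0.0496, edgeR). HIST1H3D, the H3 gene with the highest level per kb of exon, was at 0.91 (SE 0.54) and HIST1H3G at -0.51 (SE 0.51), and neither passed.

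Of the 9 H4 genes tested, 4 were called higher, against 2.1% of all genes tested. The median log2 fold change of 0.97 was the highest of the 5 types. Count and median include HIST2H4B, which passed the filter through its KD libraries. Its call supports nothing about the type, and the rank of the median without it was not tested. HIST1H4H was at 5.59 and 7.48 CPM in HN6 NC, 11.5 and 10.9 with siFAT1-1, and 15.8 and 14.6 with siFAT1-2. In HN30 it was at 0.792 and 0.733 CPM in NC, 2.76 and 2.34 with siFAT1-1, and 9.09 and 1.40 with siFAT1-2. All KD libraries exceeded the NC libraries of their line, and the 2 HN30 siFAT1-2 libraries were the farthest apart. The log2 fold change was 1.60 (SE 0.48, adjusted p 0.156, edgeR). An exon of ENSG00000289447 lies over HIST1H4H on the opposite strand. HIST1H4E was at 0.989 and 1.21 CPM in HN6 NC and 2.29 to 3.595 in KD, and at 0.113 and 0.0253 in HN30 NC and 0.0616 to 0.808 in KD. It was apart in HN6 and overlapped in HN30, with a log2 fold change of 1.85 (SE 0.62, adjusted p 0.201, edgeR). HIST4H4 was at 1.19 and 1.81 CPM in HN6 NC and 1.36 to 3.18 in KD, and at 0.113 and 0.152 in HN30 NC and 0.233 to 1.04 in KD. Its groups overlapped in HN6 and were apart in HN30, where the NC libraries held only 4 and 6 counts. The log2 fold change of HIST4H4 was 1.18 (SE 0.48, adjusted p 0.292, edgeR). HIST1H4K had an unadjusted P of 0.0268 (edgeR) with a log2 fold change of 0.97 (SE 0.39), and its sum with its near copy HIST1H4J was at 0.81 (SE 0.36).

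HIST2H4B, the other H4 gene called, had 3 counts in the 4 NC libraries together and 265 in the 8 KD libraries. The ratio was 45.2 (95% exact counting interval 15.3 to 220). The KD libraries differed widely: the siFAT1-1 libraries of HN6 held 1.54 and 0.0636 CPM and its siFAT1-2 libraries 1.41 and 2.83 CPM, and the siFAT1-1 libraries of HN30 held 0.784 and 0.708 CPM and its siFAT1-2 libraries 0.144 and 0.0292 CPM. The last of these was 1 count, as in the first HN30 NC library. HIST2H4A is a near-identical copy (all 150-nt windows of HIST2H4B are shared with it), and reads could be split between them. Summed, the pair was at 0.239 and 0.310 CPM in HN6 NC against 0.414 to 3.04 in KD, and at 0.0849 and 0 in HN30 NC against 0.0292 to 0.970 in KD. The sum overlapped in HN30, and its log2 fold change was 2.89 (SE 0.87, adjusted p 0.161, edgeR).

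None of the 5 H1 genes tested was called, where 2.1% of all genes were called higher, and their median log2 fold change was 0.60. HIST1H1C was at 63.5 and 197 CPM in HN6 NC, 121 and 134 with siFAT1-1, and 70.6 and 147 with siFAT1-2. In HN30 it was at 12.99 and 13.7 CPM in NC, 33.3 and 35.1 with siFAT1-1, and 56.1 and 26.0 with siFAT1-2. The NC libraries of HN6 spanned all its KD libraries, whereas in HN30 each KD library was above NC. Over both lines the log2 fold change was 0.60 (SE 0.39, unadjusted P 0.149, edgeR).

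**Figure D5:**
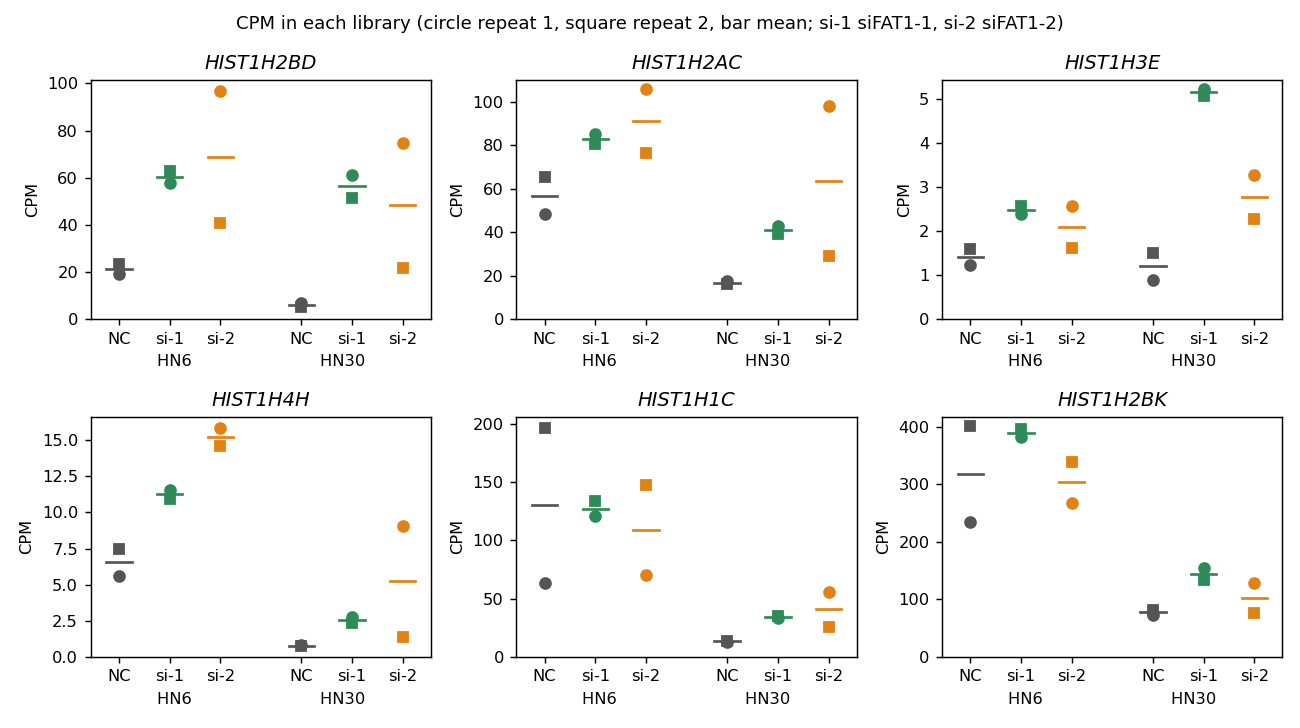
CPM of 6 clustered histone genes in each library, by line and siRNA, on axes from 0; circles are repeat 1, squares repeat 2 and bars the mean of both. For HIST1H2BD, HIST1H2AC, HIST1H3E and HIST1H4H each KD library is above the NC libraries of its line, and for HIST1H1C and HIST1H2BK the HN6 groups overlap.

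Of the genes with an annotated longer transcript, 16 were tested, and those were all above 0 with a median log2 fold change of 1.07, and 8 were called. Of those without, 35 were tested, 28 were above 0, the median was 0.59 and 2 were called (HIST2H3D and HIST1H4E). Over all genes tested, 2.1% were called higher. The 8 include HIST2H4B, which passed the filter through its KD libraries, so its call supports nothing about longer transcripts. Both groups differed in level as well. Genes with a mean of at least 1 CPM over all 12 libraries were also split. Of these, 7 of 13 with a longer transcript and 1 of 14 without were called, with medians of 1.09 and 0.72. That mean includes the 8 KD libraries, so genes could pass the cut through the group where they are high. HIST2H2BF, HIST4H4 and HIST1H4E, all called here, were under 1 CPM in both HN30 NC libraries. The calls at this cut therefore support nothing about longer transcripts. The contrast was smaller within HN6 and with siFAT1-2. Within HN6, 3 of 13 and 1 of 14 were called, against 2.19% of all genes tested, with medians of 0.64 and 0.54. With siFAT1-2, 7 of 13 and 5 of 14 were called, against 4.4% of all. The counts are per gene, so the transcript that changed was not measured.

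Within HN6, 6 of 51 tested clustered histone genes were called, all higher, against 2.19% of all 13626 genes tested, and the median log2 fold change was 0.57. Within HN30, 12 of 41 were called, all higher, against 2.09% of all 13602 genes, with a median of 1.18. Of the 12, HIST1H1D, HIST2H3D, HIST2H4B and HIST4H4 had under 10 counts in both HN30 NC libraries and passed the filter through KD libraries, as did HIST2H4B in HN6. These calls support nothing about the list. In neither line did any gene of the table reach an adjusted p of 0.05 by edgeR, and at an unadjusted P under 0.05 there were 8 clustered histone genes in HN6 and 12 in HN30, all higher, against 3.29% and 4.31% of all genes. Both lines shared 4 called genes, HIST1H2BD, HIST1H4H, HIST2H3D and HIST2H4B, which was 4 of 6 in HN6 and 4 of 12 in HN30. HIST1H2BD was at 1.61 (SE 0.38) in HN6 and 3.08 (SE 0.53) in HN30 on the log2 scale. The linker histone genes HIST1H1C, HIST1H1D (H1.3) and HIST1H1E were called in HN30. HIST1H1C and HIST1H1E were at 1.498 (SE 0.345) and 1.54 (SE 0.62) in HN30 and at -0.11 (SE 0.46) and -0.06 (SE 0.47) in HN6. HIST1H1D had 2 and 1 counts in the HN30 NC libraries and 26, 11, 2 and 24 in HN30 KD, too few for a fold. Without the first or the second HN30 NC library, 6 and 4 genes were called in HN30.

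The difference between the lines was tested as an interaction. By the same thresholds 4 of 51 genes had a larger change in HN30, against 0.933% of all genes tested, and 0 had a larger change in HN6. These were HIST2H3D (unadjusted P 0.00728), HIST1H1C (1.64, SE 0.62, unadjusted P 0.0210), HIST1H2BD (1.496, SE 0.617, unadjusted P 0.0320) and HIST1H1E (1.64, SE 0.71, unadjusted P 0.0392, edgeR). None of the 14360 genes had an adjusted p under 0.05 for the interaction by edgeR (160 were higher and 157 lower at an unadjusted P under 0.05), and the value of HIST2H3D rests on the HN30 NC libraries at 0 counts. Without the second HN30 NC library 1 gene was called. Without the first HN6 NC library 8 were called, and without the first siFAT1-1 library of either line 2 were.

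Against the shared NC libraries, siFAT1-1 gave 8 called genes of 51, all higher, against 3.41% of all genes tested, and a median log2 fold change of 0.48. siFAT1-2 gave 15, all higher, against 4.4% of all, and a median of 0.86. At an adjusted p under 0.05 there were 2 with siFAT1-1 (HIST1H2BD and HIST1H3E), where 1.13% of all genes were higher, and 1 in the fit with the replicate block. With siFAT1-2 there were 6 (HIST1H2BD, HIST1H4H, HIST1H2AC, HIST2H4B, HIST1H2BJ and HIST2H2BF), where 4.15% of all genes were higher. HIST2H4B was called with both siRNAs. It had under 10 counts in every NC library and passed the filter through KD libraries, so these calls support nothing about the list. HIST1H2BD was at 2.29 (SE 0.45) with siFAT1-1 and 2.24 (SE 0.44) with siFAT1-2, and HIST1H3E at 1.45 (SE 0.34) and 0.85 (SE 0.34). HIST1H2BF, HIST1H2AI, HIST1H3D and HIST1H2BG were among those called with siFAT1-2, at 1.92 (SE 0.58), 1.32 (SE 0.41), 1.38 (SE 0.52) and 1.23 (SE 0.47), and stood at 0.49, 0.16, 0.23 and 0.48 with siFAT1-1. Without the first HN30 siFAT1-2 library 7 genes were called with siFAT1-2. The 6 genes with an adjusted p under 0.05 became 11 without the second HN30 siFAT1-2 library, 1 without either HN30 NC library, 2 without the first HN6 NC library, the first HN30 siFAT1-2 library, the first HN6 siFAT1-1 library or either HN30 siFAT1-1 library, and 3 without the first HN6 siFAT1-2 or the second HN6 siFAT1-1 library. With siFAT1-1, 13 genes were called without the second HN6 NC library, 5 without the first HN30 siFAT1-1 library and 4 without the second HN30 NC library. The 2 genes with an adjusted p under 0.05 became 0 without any 1 of the HN30 NC and HN30 siFAT1-1 libraries, 1 without the first HN6 NC or first HN6 siFAT1-1 library, and 4 without the second HN6 NC or the first HN30 siFAT1-2 library.

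The siRNAs were also compared with each other. The NC libraries are not a side of this comparison. The fit covered all 12 libraries, so NC libraries still entered its filter, scaling and spread. Of the 51 genes, 4 were called lower with siFAT1-1 than with siFAT1-2, a count near the background of 5.21% of all genes tested, and 0 were called higher. They were HIST1H2AI at -1.16 (SE 0.41, adjusted p 0.0682), HIST1H4I at -1.79 (SE 0.66, adjusted p 0.0783), HIST1H2BF at -1.42 (SE 0.57) and HIST1H3D at -1.15 (SE 0.51, edgeR). None had an adjusted p under 0.05 by edgeR, against 16.8% of all genes in either direction, and 5 were lower at an unadjusted P under 0.05, against 15.9% of all. HIST1H2BD differed by 0.05 (SE 0.42) between the siRNAs. Without the first HN30 siFAT1-2 library 0 genes were called, without the second 9 were, and without either HN30 siFAT1-1 library or the first HN6 siFAT1-1 library 2 were.

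Variant and replacement histone genes outside the 4 name stems, most of which give polyadenylated mRNA, were read beside them. H2AFX is known to give a stem-loop mRNA as well. Of 21 listed, 12 were tested, with a median log2 fold change of -0.29. At an unadjusted P under 0.05 by edgeR, 4 fell: H2AFX (H2AX) at -0.90 (SE 0.25), H2AFV (H2A.Z.2) at -0.64 (SE 0.20), H1FX (H1X) at -0.50 (SE 0.20) and H2AFZ (H2A.Z) at -1.05 (SE 0.48), and 0 rose, where 7.6% of all genes were lower. H2AFZ alone was past the fold threshold, and 0 genes were called in the fit with the replicate block. Leaving out the second HN6 siFAT1-2 library or either HN30 siFAT1-2 library gave 1 call, leaving out the first HN6 NC library gave 2, and leaving out any 1 of the other 8 libraries gave 0. In HN6, H2AFZ was at 256 and 406 CPM in NC, 117 and 121 CPM under siFAT1-1 and 165 and 323 CPM under siFAT1-2. The HN30 libraries were at 256 and 252 CPM in NC, 28.6 and 29.9 CPM under siFAT1-1 and 146 and 228 CPM under siFAT1-2. The siFAT1-1 libraries were the lowest in both lines. H3F3B, which encodes the replacement histone H3.3, was at 666 to 1211 CPM in all libraries, with a log2 fold change of -0.15 (SE 0.13).

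Genes of histone gene transcription, histone mRNA processing and decay, general polyadenylation and histone chaperones were all tested (36 of 36), with a median log2 fold change of -0.16. By edgeR, CCNE1 (cyclin E1, which drives entry into S phase) was called lower at -2.05 (SE 0.34, adjusted p 0.0196). So was ASF1B, a histone chaperone, at -1.03 (SE 0.30, adjusted p 0.146). These were 2 of 36, against 1.11% of all genes tested, and 0 were called higher, against 2.1% of all. Without the first HN6 NC library 4 were called lower and 1 higher, and 1 was called lower without the first HN6 siFAT1-2 library, the first HN30 siFAT1-2 library, or any 1 of the HN30 NC and HN30 siFAT1-1 libraries. SLBP was at 61.6 and 86.7 CPM in HN6 NC against 35.8 to 70.1 in KD, and at 51.5 and 38.4 in HN30 NC against 24.5 to 27.8 in KD. Its groups overlapped in HN6 and were apart in HN30, and its log2 fold change was -0.60 (SE 0.19, unadjusted P 0.00747, edgeR). UPF1 (a helicase of histone mRNA decay), CSTF2 (a polyadenylation factor) and CHAF1A (a histone chaperone) were also lower at an unadjusted P under 0.05, at -0.65 (SE 0.20), -0.52 (SE 0.22) and -0.92 (SE 0.40). CSTF3 and CPSF2, both subunits of the polyadenylation complexes, were higher at 0.55 (SE 0.17) and 0.46 (SE 0.20). At that limit 6 of the 36 were lower, where 7.6% of all genes were. The 2 that were higher are a count near the share of all genes, 6.62%. CPSF2 was at 59.3 and 33.0 CPM in HN6 NC against 67.7 to 103 in KD. In HN30 it was at 81.7 and 97.8 CPM in NC against 85.7 to 108 in KD, so the HN30 groups overlapped. NPAT, the coactivator of clustered histone genes, was at -0.07 (SE 0.59), with the HN6 NC libraries far apart at 12.4 and 0.875 CPM. NPAT was not alone in this. In the same libraries PAPOLA, also in the list, was at 267 and 61.1 CPM, while SLBP went the other way.

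Genes of S phase had a median change of the opposite sign to that of the clustered histone genes, and their part in the result was not tested. Of 25 S phase genes tested, 12 were lower and 0 higher at an unadjusted P under 0.05 (edgeR), where 7.6% of all genes were lower and 6.62% higher, with a median log2 fold change of -0.66. At the same limit within HN6, 0 of the 25 were lower (median -0.37), where 331 of all 13626 genes were. Within HN30, 15 were lower (median -1.05), where 679 of all 13602 genes were. Their summed level in HN6 was 2839 and 4673 CPM in NC and 1338 to 3579 CPM in KD, so the groups overlapped. In HN30 it was 4014 and 2859 CPM in NC and 939 to 2365 CPM in KD, so the groups were apart. In single KD libraries the median difference of the S phase genes from NC ran from -1.79 (HN30 siFAT1-1, repeat 1) to 0.07 (HN6 siFAT1-2, repeat 2). The clustered histone genes were at 0.80 and 0.51 in these libraries.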

How the data were processed

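Total RNA was harvested 24 h after transfection, and mRNA was purified with poly(T) before library preparation. The deposited file holds raw counts of reads per gene (whole numbers, not scaled) in 12 columns, on the build hg38. The submitters' processing notes name HISAT2 and featureCounts. The annotation, the use of strand and the treatment of reads with several positions are not given in the sources used here. The library titles call the siRNAs sh1 and sh2, while the descriptions and the study's methods call them siRNAs.

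The 70 symbols were matched through RefSeq synonyms (70 matched) to GENCODE 44. Stem-loops were searched on hg38 within 200 nt after the stop codon. Copies were judged by exact 150-nt windows shared between transcripts. Counts were scaled by TMM in edgeR 4.0.16 (R 4.3.3) and filtered by filterByExpr with a minimum count of 10 over the 6 conditions. The quasi-likelihood test was run over all genes with cell line as a term, and p-values were adjusted by the Benjamini-Hochberg method over all genes tested. Fits within a line were scaled and filtered on the libraries of that line alone and had no line term. The interaction fit added the product of cell line and KD. limma 3.58.1 (voom, the tool of the study) and DESeq2 1.42.0 were alternatives. For edgeR fits the SE was derived as the absolute log2 fold change divided by the square root of the F statistic of the test. Counting intervals are exact and cover counting error only. The limit of 3 counts covers the counting error of the NC counts alone. Depth was 26430049 to 47639010 counts per library.

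Named genes were FAT1, clustered histone genes past a threshold in any comparison with NC or apart from NC in all 8 KD libraries, the 2 highest per type, those with the smallest p for the siRNA difference and the interaction, SLBP, NPAT, H2AFZ, H3F3B, and genes of the lists of variant histone genes and of histone mRNA and chaperone genes with an unadjusted P under 0.05. HIST2H2BE, HIST2H2AC, HIST1H2AA, the other genes called in the interaction and siRNA comparisons, and the undetected H4 genes were added after their values were seen. The members and lists were chosen with earlier results of these data known. A list of 10 symbols and symbol prefixes for RNA without a poly(A) tail matched 0 entries, so it could not be measured. The leukocyte marker list is not reported here.

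The labels mark the repeats as separate times, so same-numbered libraries of a line are pairs. The test as reported had no term for them, and the fit with the repeat number as a block was an alternative. The correlation of their deviations from the group means was 0.08 to 0.22 in HN6 and -0.03 to 0.39 in HN30. Repeats of a condition differed beyond sampling noise (chi-square per degree of freedom 14.3 to 236). The study's methods call the repeats biological.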

Additional observations from a re-analysis of the deposited data

Results flagged for a closer look

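Among the genes reported, 5 differed between the siRNAs at an adjusted p under 0.05 (edgeR, siFAT1-1 against siFAT1-2), where 16.8% of all genes tested did, and none was a clustered histone gene. H2AFZ was lower with siFAT1-1 by a log2 difference of -1.78 (SE 0.36, adjusted p 0.00781). SRRT, the RNA-processing factor ARS2, differed by -0.70 (SE 0.16, adjusted p 0.0127), UPF1 by -0.64 (SE 0.15, adjusted p 0.0156) and CSTF2 by -0.67 (SE 0.18, adjusted p 0.0231). SYMPK, the scaffold symplekin of the histone cleavage complex, was higher with siFAT1-1 by 0.78 (SE 0.17, adjusted p 0.0101). Conditions of 2 libraries were too small for a search for single outlying libraries.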

How the results depend on the processing

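In KD against NC over both lines, the median of the clustered histone genes and the single genes checked kept their direction in every alternative run. So did each histone type when its counts were summed. For the other results only numbers of calls were compared, which cannot show a reversal. Within HN6 the H1 genes had a median log2 fold change of 0.196, but their summed counts gave -0.087 (SE 0.461). The 10 clustered histone genes called in KD against NC became 3 without a cell line term and 3 with the libraries of time 2 alone, and lay between 3 and 14 over all alternatives that leave out no single library. The 1 with an adjusted p under 0.05 became 8 by the DESeq2 Wald test and 0 without a cell line term or with the libraries of time 1 or time 2 alone. The 1 variant histone gene called became 0 with DESeq2 size factors, with the replicate block, without a cell line term and with either time alone. The 2 called genes of the list of histone mRNA and chaperone genes became 1 without a cell line term and 1 with time 2 alone. By limma-voom, the 4 genes of the siRNA difference became 1, as did the 4 of the interaction. With the replicate block, the 2 genes with an adjusted p under 0.05 for siFAT1-1 became 1, the KD comparison called 14, and the block changed no other call count by over 1.5 times. The causes of these shifts were not tested.

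Leaving out 1 library at a time gave 7 to 17 genes for KD against NC and 0 to 1 with an adjusted p under 0.05, 4 to 12 for HN30, 4 to 13 for siFAT1-1 (0 to 4 by adjusted p), 7 to 22 for siFAT1-2 (1 to 11 by adjusted p), 0 to 9 for the siRNA difference, 1 to 8 for the interaction, 0 to 2 for the variant histone genes and 1 to 5 for the histone mRNA and chaperone genes. Where 1 NC library remained in a line, it was assumed to vary like the others. Summing near-identical copies, an alternative chosen after seeing the data, left 10 calls. The depth limits genes of few counts, and carry-over of tailless histone mRNA was not measured.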
